A study of Homo sapiens with 3 samples.

Results

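The 10 genes followed here encode AP-1 subunits or other immediate early factors, measured in C33A cells: FOS, FOSB, FOSL1, FOSL2, JUN, JUNB, JUND, EGR1, ATF3 and IER2. They were taken by symbol from the annotation of the array, each from the probe sets that carry that symbol alone. All 10 were measured, each by 1 probe set, among 18417 genes in all. C33A is a line established from a human cervical carcinoma, and RNA was taken from 3 cultures in exponential growth, with 1 Affymetrix Human Gene ST array (biotin-labelled single-stranded DNA from 100 ng of RNA) per culture. The medium of every culture was DMEM with 7% fetal bovine serum, penicillin and streptomycin, at 37°C and 5% CO2, and no agent was added. The arrays therefore held 1 group of 3 samples, and no starved or stimulated cells were compared.

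AP-1 is a dimeric transcription factor in which a JUN protein pairs through a leucine zipper with another JUN protein or with a FOS protein, whereas FOS proteins do not pair with each other. Immediate early genes are transcribed within minutes of serum, growth factor or stress signals, without new protein synthesis, and their mRNAs are mostly short-lived. The RAS to ERK cascade reaches their promoters through serum response factor (SRF) and its ETS partners at CArG boxes and through CREB proteins at cyclic AMP response elements, while JNK phosphorylates JUN itself.

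To show the elements through which this control is known to run, the promoters of EGR1, FOS and JUND are given below. EGR1 had the highest signal of the 10 genes, FOS the widest spread between cultures, and JUND the only match to the full cyclic AMP response element. Each sequence holds the 210 bases before the RefSeq start site (GRCh38.p14), 5′ to 3′ on the strand of the gene, at chr5:138465269-138465478 (+) for EGR1, chr14:75278618-75278827 (+) for FOS and chr19:18281623-18281832 (-) for JUND. Capitals mark CArG boxes, the TATA element TATAAA, the cyclic AMP response element TGACGTCA and its core TGACG, each searched on both strands, so that the core also appears as CGTCA.
EGR1: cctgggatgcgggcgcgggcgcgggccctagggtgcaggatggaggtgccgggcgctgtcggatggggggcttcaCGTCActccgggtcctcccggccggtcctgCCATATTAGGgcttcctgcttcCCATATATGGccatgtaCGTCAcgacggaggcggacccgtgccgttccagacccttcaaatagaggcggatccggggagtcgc
FOS: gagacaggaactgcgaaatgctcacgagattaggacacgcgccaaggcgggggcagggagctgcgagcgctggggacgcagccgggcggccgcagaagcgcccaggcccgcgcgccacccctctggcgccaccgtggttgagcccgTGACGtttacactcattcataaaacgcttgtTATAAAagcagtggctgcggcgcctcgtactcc
JUND: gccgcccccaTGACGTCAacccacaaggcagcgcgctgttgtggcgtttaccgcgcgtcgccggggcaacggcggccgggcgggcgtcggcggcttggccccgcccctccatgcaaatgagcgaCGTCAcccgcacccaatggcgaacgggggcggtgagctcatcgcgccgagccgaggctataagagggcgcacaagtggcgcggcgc

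In the promoter windows of 250 bases before and 50 from the start site, a table that held 9 of the 10 genes, the core TGACG was found for 8 genes: EGR1, FOS, FOSB, FOSL2, IER2, JUN, JUNB and JUND. It was present in 24.6% of all 35116 windows of this length. Of the 10365 genes whose signal exceeded the background bound described below, 8446 had a window, and 41.7% of these held the core. Further shares of the genes above the bound refer to these 8446. In FOS the core began 64 bases before the start site, in FOSB 60, in FOSL2 66 and 201, and in EGR1 66 and 135. The full element TGACGTCA, which contains the core, was matched in JUND alone, 200 bases before its start site, against 1.85% of all windows and 4.17% of the genes above the bound. CArG boxes were matched in EGR1 alone, 105 and 83 bases before the start site, against 1.29% of all windows and 127 of the 8446 genes above the bound. The TATA element was matched in 4 genes, against 11.5% of all windows and 7.45% of the genes above the bound. It lay 33 bases before the start site of FOS, 31 before that of JUNB and 30 before that of FOSB, and in ATF3 it lay 230 bases before 1 of the 2 start sites listed. The AP-1 site TGACTCA itself was matched in FOSL2 alone, starting at base 5 of the transcript, against 4.95% and 3.82%. An EGR site (GCGNGGGCG) was matched in EGR1 alone, 198 bases before its start site, against 9.43% and 20.5%. The GC box GGGCGG was matched in 7 of the 9 genes, against 45.0% of all windows and 79.1% of the genes above the bound, so its share in the members was close to that of other genes above the bound. FOSL1 had no window in the table. These are matches of letters and no measurement of binding, and a window without a match says nothing of elements outside it. By the same table, 4 of these 9 genes, FOSB, IER2, JUNB and JUND, lie on chromosome 19. The share of all windows on that chromosome was not taken, so this count has no background beside it.

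Of the 10 genes, 8 gave a signal above background on every array, FOSB lay at the background bound and ATF3 below it. Signals are log2 intensities after normalization of the 3 arrays together. No detection call comes with them, so background was set at 6.43 log2, the 95th percentile of the means of 455 genes from families silent in most tissues (beta-defensins, keratin-associated proteins, olfactory and taste receptors). The mean signal exceeded this bound for 9 of the 10 genes, FOSB by 0.05 log2 only, beside 56.3% of all genes. The highest of 3 equal groups (tertiles) of genes by mean signal held 5 of the 10 genes, beside 33% of all genes by construction, and the middle one held the other 5. Their median signal was 8.35, and that of all genes was 6.91. Probe sets differ in how well their sequences hybridize, so ranks between genes are approximate. An array of RNA from whole cultures also cannot tell fewer expressing cells from less RNA per cell.

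**Figure D1:**
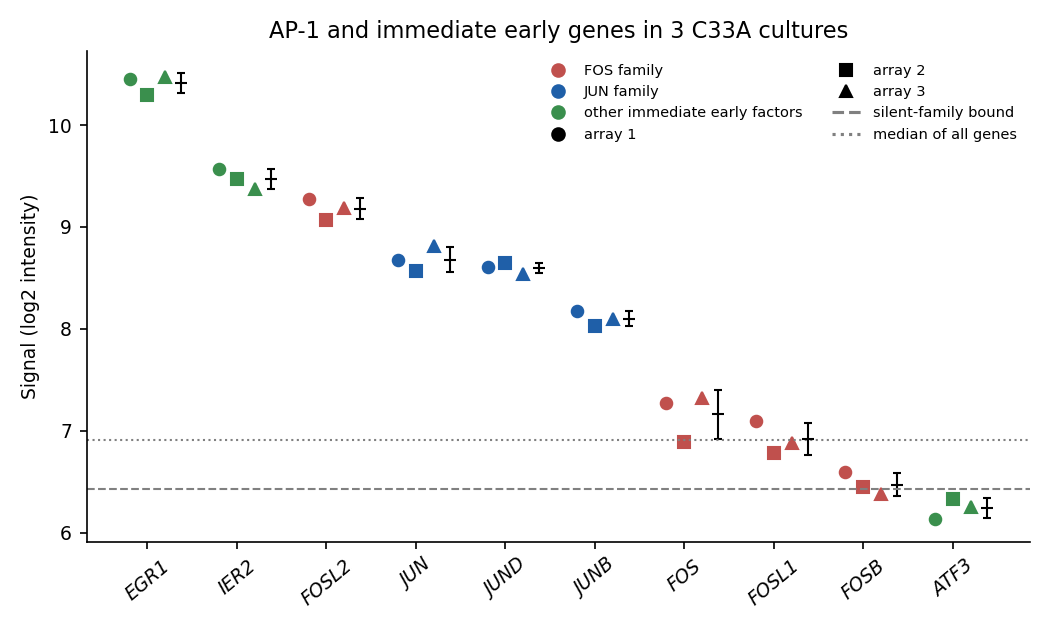
Signal (log2 intensity, y axis) of the 10 genes on arrays 1, 2 and 3, coloured by family, with the mean and SD of the 3 arrays as a bar beside the points. The dashed line is the background bound of 6.43 and the dotted line the median of all genes, 6.91. EGR1, IER2, FOSL2 and the JUN genes lie well above both lines, FOSB lies at the bound and ATF3 lies below it.

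Among the FOS family, FOSL2 stood apart with the highest signal. FOSL2, a Fos-related protein that lacks the strong transactivation domain of FOS, was at 9.27, 9.07 and 9.19 log2 on arrays 1, 2 and 3 (mean 9.18 ± 0.10, SD, n = 3 cultures; probe set 8041048), in the 9th decile of all genes. FOS, the prototype serum-induced subunit, was at 7.27, 6.89 and 7.32 (7.16 ± 0.24, SD, n = 3; probe set 7975779), in the 6th decile. FOSL1, the other Fos-related protein of this kind, was at 7.10, 6.78 and 6.88 (6.92 ± 0.16, SD, n = 3; probe set 7949532). The values of FOS and FOSL1 overlapped, and both lay near the median of all genes. FOSB, a subunit best known from neurons, was at 6.59, 6.45 and 6.38 (6.47 ± 0.11, SD, n = 3; probe set 8029693). Its mean was 0.05 log2 above the bound and array 3 fell below it, so that a signal of FOSB beyond background is not shown.

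All JUN genes were clearly above background, in a narrow band. JUN, the main partner of FOS, was at 8.68, 8.57 and 8.81 log2 (mean 8.68 ± 0.12, SD, n = 3 cultures; probe set 7916609), in the 8th decile. JUND, the subunit that is transcribed most constantly and slows growth in many cells, was at 8.61, 8.65 and 8.54 (8.60 ± 0.05, SD, n = 3; probe set 8035445). The values of JUN and JUND overlapped. JUNB, which can oppose JUN at the same sites, was at 8.17, 8.03 and 8.10 (8.10 ± 0.07, SD, n = 3; probe set 8026047), below the other JUN genes on every array. JUNB lay just under the highest tertile, which began at 8.14. Without array 2 its mean was 8.13, and with tertiles cut again on the other arrays it fell in the highest. That gave 6 genes there. JUND had the smallest SD of the 10 genes.

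EGR1 and IER2 had the highest signals of all 10 genes, and ATF3 the lowest. EGR1, a zinc finger factor induced by serum through SRF, was at 10.45, 10.29 and 10.47 log2 (mean 10.41 ± 0.10, SD, n = 3 cultures; probe set 8108370), in the 10th decile. IER2, a nuclear protein of the same early response, was at 9.57, 9.47 and 9.37 (9.47 ± 0.10, SD, n = 3; probe set 8026163), in the 9th decile. ATF3, a basic leucine zipper protein induced by stress that pairs with JUN proteins, was at 6.13, 6.33 and 6.25 (6.24 ± 0.10, SD, n = 3; probe set 7909610). It was below the bound on all 3 arrays, and 6.59% of the silent-family genes had a higher signal. In the order of the means, EGR1, IER2, FOSL2, JUN, JUND, JUNB, FOS, FOSL1, FOSB and ATF3, the array values of 7 of the 9 neighbouring pairs did not overlap, and those of JUN with JUND and of FOS with FOSL1 did. Replicate arrays do not measure how probe sets differ, so this does not settle the order of the mRNAs. No share for pairs of other genes is given here.

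**Figure D2:**
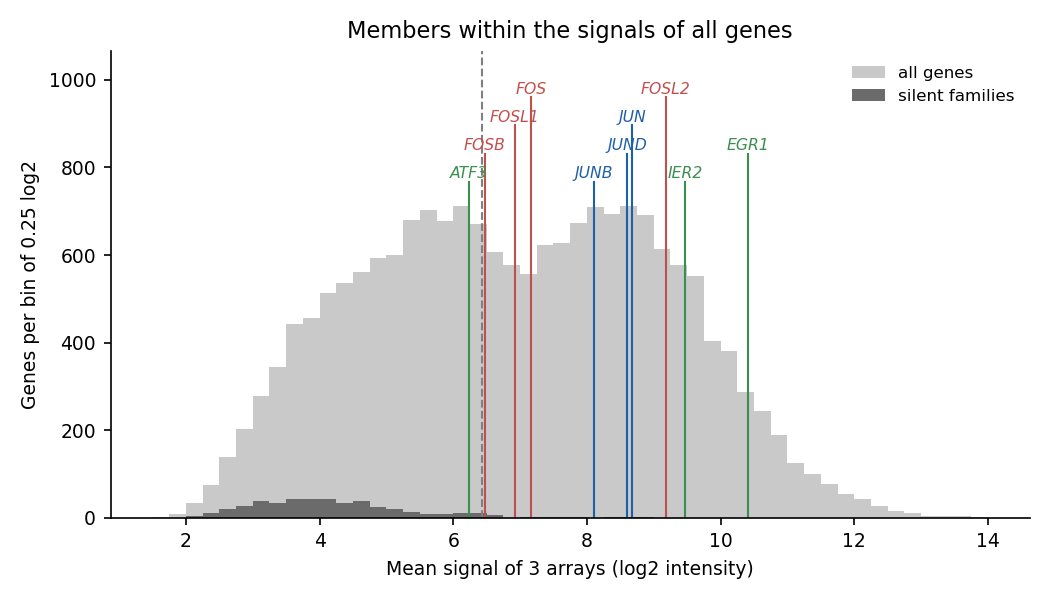
Number of genes (y axis) by mean signal of the 3 arrays (log2 intensity, x axis) for all 18417 genes in light grey and the 455 genes of silent families in dark grey, with the 10 genes as coloured lines. The dashed line is the bound of 6.43. EGR1, at 10.41, lies in the right tail, and ATF3, FOSB, FOSL1 and FOS lie between 6.24 and 7.16.

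The choice of the bound mattered for the 4 genes of lowest signal. Where the 99th percentile of the silent families (7.88 log2) was taken, 6 genes remained above it, since FOS, FOSL1, FOSB and ATF3 fell below. Where olfactory receptor genes alone set the bound (5.38), all 10 were above it. The share of all genes above these other bounds is not given here, so these counts have no background beside them. EGR1, IER2, FOSL2, JUN, JUND and JUNB were above every bound tried.

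FOS varied between the cultures more than other genes of like signal. Its SD of 0.24 log2 compared with a median of 0.08 for the genes of its decile and lay at percentile 98.1 of them. EGR1, with an SD of 0.10 against a median of 0.04, lay at percentile 92.2 of its own decile. These 2 of the 10 genes exceeded the 90th percentile of their decile, beside 10% of all genes by construction. The count rests on array 2, since without it IER2 alone exceeded the limit, whereas without array 3 FOS, FOSL1, FOSL2 and EGR1 did. JUND and JUNB, with SDs of 0.05 and 0.07, varied about as much as the median gene of their deciles (0.06 and 0.07).

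**Figure D3:**
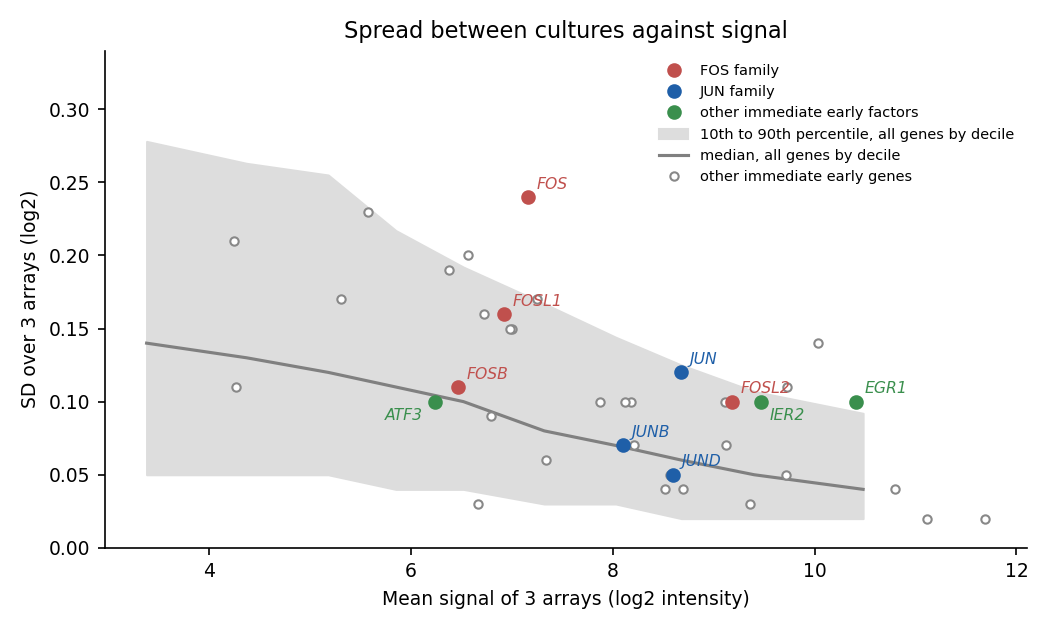
SD over the 3 arrays (log2, y axis) against mean signal (log2 intensity, x axis) for the 10 genes in colour and 29 other immediate early genes as open circles. The grey band runs from the 10th to the 90th percentile of all genes by decile of signal, with their median as a line. FOS, at 0.24, lies well above the band and JUND, at 0.05, near the median.

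The cultures did not differ evenly. FOS, FOSL1, FOSL2, JUN, JUNB and EGR1 had their lowest value on array 2, which makes 6 of the 10 genes beside 35.8% of all genes. The deviation from the mean of the gene on that array was -0.27 log2 for FOS, -0.14 for FOSL1, -0.12 for JUN, -0.11 for EGR1 and FOSL2 and -0.07 for JUNB. ATF3 and JUND had their highest values on array 2. Among 29 other immediate early genes measured, 13 were lowest on array 2, 10 on array 1 and 6 on array 3. In both sets together, 6 of 39 genes exceeded the 90th percentile of SD for their decile: EGR1, FOS, EGR3, RHOB, SGK1 and ZFP36. EGR3 and SGK1 were below the background bound. All 6 were lowest on array 2, beside 35.4% of all the genes with such an SD. The pattern was described after the values had been seen, rests on 1 array per culture and was not tested. The median of all genes was 6.92, 6.92 and 6.90 on arrays 1, 2 and 3, and Pearson's r across genes was 0.996 to 0.997 between arrays.

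**Figure D4:**
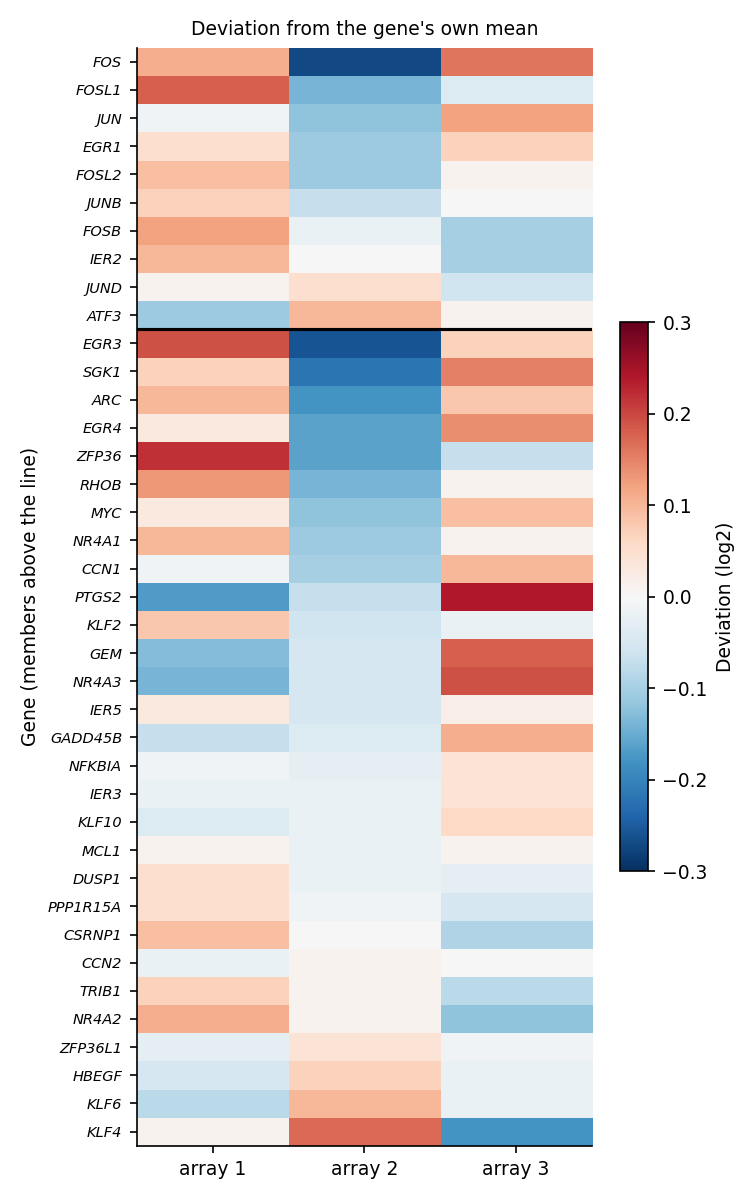
Deviation of each array from the gene's own mean over the 3 arrays (log2, colour) for the 10 genes above the black line and 29 other immediate early genes below it, each block sorted by array 2. Blue marks values below the mean. FOS at the top stands at -0.27 on array 2, and ATF3 at the bottom of its block at 0.10.

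Genes whose pattern over the arrays was most like that of the 9 members whose mean exceeded the bound, FOSB included, were sought among 115 genes of the pathway. The mean deviations of the 9 members were 0.08, -0.09 and 0.01 log2 on arrays 1, 2 and 3. The smallest Euclidean distances from this profile, over the 3 arrays, were those of the phosphatase gene DUSP2 (0.01), the nuclear receptor gene NR4A1 (0.03), the phosphatase gene DUSP4 (0.03), KLF2 (0.04) and BATF3 (0.04). With 3 samples of 1 condition this likeness is a description, and DUSP4 and BATF3 were themselves below the background bound.

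Most other immediate early genes also gave a signal above background, over a wide range. Of 31 listed, 29 were measured and 24 of these (82.8%) exceeded the bound, beside 56.3% of all genes, with a median of 8.12 log2 beside 6.91 for all genes. CCN2, which encodes a matricellular growth factor, was highest at 11.67, 11.70 and 11.69 (11.69 ± 0.02, SD, n = 3 cultures), and PTGS2, the inducible cyclooxygenase, lowest at 4.25 ± 0.21 (SD, n = 3). EGR3, a relative of EGR1, had the largest SD of this list, with 5.76, 5.31 and 5.63 (5.57 ± 0.23, SD, n = 3), all below the bound, in contrast to EGR1. MYC was at 9.73 ± 0.11 (SD, n = 3).

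**Figure D5:**
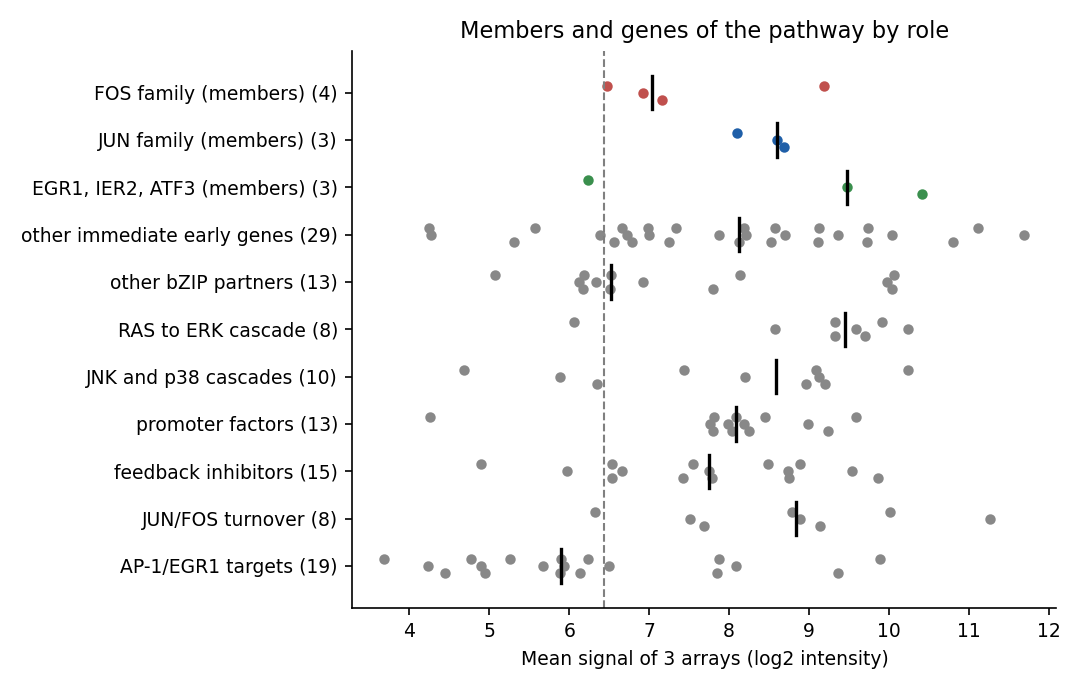
Mean signal of the 3 arrays (log2 intensity, x axis) of each measured gene by role, with the number of genes in brackets and the median as a black bar. The dashed line is the background bound of 6.43. The RAS to ERK genes have a median of 9.45, and 13 of the 19 target genes lie at or below the bound.

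Another list held other leucine zipper proteins, namely partners of JUN or FOS and the CREB family genes CREB1 and CREM. Of these, 8 of 13 measured (61.5%) were above the bound, a share near the 56.3% of all genes. Their median of 6.52 log2 was below the 6.91 of all genes. CREB1, which binds cyclic AMP response elements, was highest at 10.06 ± 0.05 (SD, n = 3 cultures). ATF2, a JUN partner that JNK also phosphorylates, was at 9.97 ± 0.07 (SD, n = 3), and JDP2, which represses AP-1 sites, at 6.92 ± 0.14 (SD, n = 3). MAF was lowest at 5.07 ± 0.11 (SD, n = 3), and MAFA, at 6.60, 6.32 and 6.64, varied most. BATF, BATF2 and BATF3, AP-1 subunits best known from immune cells, were all below the bound, at 6.18, 6.12 and 6.17. ATF2, JDP2 and the BATF genes were named after their values were seen.

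The kinases that signal to these genes were mostly of high signal. In the RAS to ERK cascade 7 of 8 measured genes (87.5%) were above the bound, beside 56.3% of all genes, with a median of 9.45 log2 beside 6.91. The 8 genes ranged from RPS6KA2 at 6.06 ± 0.15 log2 (SD, n = 3 cultures), which was below the bound, to the RAF kinase ARAF at 10.23 ± 0.01 (SD, n = 3). A further 5 genes of that list are not analysed here. In the JNK and p38 cascades 7 of 10 (70.0%) were above the bound, with a median of 8.58, the JNK gene MAPK9 being highest at 10.23 ± 0.03 (SD, n = 3) and MAPK10, the JNK gene of neurons, lowest at 4.69 ± 0.10 (SD, n = 3). MAPK13 varied most in that list, at 6.02, 5.68 and 5.92, all below the bound, and its SD did not exceed the 90th percentile of its decile. Of the factors and coactivators at immediate early promoters, 12 of 13 (92.3%) were above the bound, with a median of 8.09. SRF was highest at 9.59, 9.59 and 9.58 (9.59 ± 0.01, SD, n = 3), MEF2C lowest at 4.26 ± 0.11 (SD, n = 3), and the CREB coactivator CRTC1 varied most, at 8.04, 8.27 and 8.26.

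Negative regulators were detected as well. Of 15 feedback inhibitors of the kinase cascades and EGR corepressors, 13 (86.7%) were above the bound, beside 56.3% of all genes, with a median of 7.75 log2 beside 6.91. SPRY1, a Sprouty inhibitor of ERK signalling, was highest at 9.86 ± 0.02 (SD, n = 3 cultures) and the phosphatase gene DUSP4 lowest at 4.90 ± 0.07 (SD, n = 3). The ERK phosphatase gene DUSP6 was at 5.70, 6.33 and 5.88 (5.97 ± 0.33, SD, n = 3), all below the bound. It was lowest on array 1 and highest on array 2, where FOS and EGR1 were lowest. ERK activity was not measured, and this difference was not tested. The corepressor gene of EGR proteins NAB2 was at 8.48 ± 0.02 (SD, n = 3; named after its value was seen). Of 8 measured regulators of JUN and FOS protein stability, 7 (87.5%) were above the bound, with a median of 8.83, from DET1 at 6.32 ± 0.03 (SD, n = 3), below it, to DDB1 at 11.26 ± 0.01 (SD, n = 3). COPS5, the signalosome subunit also known as JAB1, was at 7.69 ± 0.11 (SD, n = 3).

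Textbook target genes of AP-1 and EGR1 were mostly at or below the bound. Of 19 measured, 6 (31.6%) exceeded it, beside 56.3% of all genes, and their median was 5.90 log2 where that of all genes was 6.91. The collagenase gene MMP13 was lowest at 3.69 ± 0.03 (SD, n = 3 cultures), and the stromelysin gene MMP10 varied most, at 7.70, 8.28 and 8.26 (8.08 ± 0.33, SD, n = 3). VIM, the intermediate filament gene, was highest at 9.88 ± 0.05 (SD, n = 3) and the cyclin gene CCND1 was next at 9.36 ± 0.10 (SD, n = 3). PDGFA, TGFB1 and HMOX1, at 6.50, 7.85 and 7.87, were the others above the bound, and with CCND1 they were named after their values were seen. The lists hold genes that other factors control too, and mRNA signals do not measure AP-1 protein or its activity.

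The labelled cell type was checked against marker genes. Of 8 epithelial markers, 2 were above the bound, KRT18 at 7.75 ± 0.11 log2 (SD, n = 3 cultures) and KRT14 at 6.86 ± 0.08 (SD, n = 3), while EPCAM was lowest at 4.52 ± 0.29 (SD, n = 3) and CDH1 was at 4.95 ± 0.09 (SD, n = 3), so that most defining epithelial markers gave no signal beyond background. None of 5 endothelial markers, 1 of 5 fibroblast markers (COL1A1 at 7.24 ± 0.14, SD, n = 3) and 1 of 4 measured leukocyte markers (PTPRC at 8.82 ± 0.11, SD, n = 3) exceeded it. The cells are therefore named by their line only.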

How the data were processed

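Total RNA of 3 C33A cultures was hybridized to 1 array each. Signals were extracted by the authors in Affymetrix software and summarized with RMA (Robust Multichip Average, also in the submitters' processing notes). The authors name oneChannelGUI for processing beyond that. No source used here gives the versions. Each probe set has 1 deposited log2 intensity per array. RMA gives the arrays a common distribution, which removes any shift shared by all genes.

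The 19460 probe sets annotated with 1 gene symbol, of 33297, were used, leaving aside 1754 that carry several symbols and 12083 for which the annotation lists no gene. Symbols were updated through the RefSeq gene table (GRCh38.p14), in which 18389 of the 18417 genes were found, and probe sets of a gene were averaged. The 455 silent-family genes are protein-coding. The members and gene lists were chosen with earlier results of these data known, so list results are counts and medians with no test. Genes named are the members and, for each list, those of highest and lowest signal and of largest SD; others are marked in the text, and KRT14, CDH1 and MYC were also added after their values were seen. With 1 group there was no test between conditions, and precision is limited by having 3 arrays. The likeness of patterns and the promoter motifs are descriptions. A planned alignment of member proteins was not run, since no protein table was used here. The functions were tested on simulated data. Python 3.11.15, NumPy 2.4.6, pandas 2.3.3 and matplotlib 3.10.9 were used.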

Additional observations from a re-analysis of the deposited data

How the results depend on the processing

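The median signal of the 10 genes stayed within 8.33 to 8.36 log2 when an array was left out and at 8.35 under the other alternatives (highest probe set, genes with 1 probe set, probe sets with several symbols, renewed quantile normalization, centring on the array medians), and no single member moved by more than 0.14. Each member has 1 probe set, so the first 2 of these other alternatives could not change its signal. The arrays already shared a distribution, so renewed normalization and centring could move the means only slightly. Leaving out an array was therefore the main check of these signals. The count above background was 8 to 9 with an array left out, 8 with probe sets of several symbols, 10 with the 90th percentile or olfactory receptor genes alone and 6 with the 99th percentile. The count in the highest tertile was 5 to 6. The count of genes with a wide spread was the least stable. It was 1 to 4 with an array left out (1 without array 2, 4 without array 3), 4 after renewed quantile normalization, 1 at the 95th percentile of SD and 1 with 20 strata of signal, against 2. FOS passed in all of these but the set without array 2. Of the 115 pathway genes, 84 were above the bound, 84 to 85 with an array left out, 55 with the 99th percentile, 75 with probe sets of several symbols, 99 with the 90th percentile and 101 with olfactory receptor genes alone. The share of all genes, 56.3%, was taken in the main setting only. Member and pathway counts in the other settings therefore have no background beside them. The count of members lowest on array 2, added after seeing the data, was 6 in the main setting and under the alternatives that kept 3 arrays. It was 6 without array 1 and 8 without array 3. With 2 arrays left, a larger share of all genes is lowest on either of them. The 35.8% of all genes, taken over 3 arrays, is thus no background for those 2 counts, and none is given. No paired analysis was possible because all samples belong to 1 group. A planned global alignment of proteins was not run. Signal over background limits FOSB and ATF3, whose means lie within 0.05 and 0.19 log2 of the bound.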
